A study of Arabidopsis thaliana with 3 samples.

Results

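The probe sets with the strongest signal in the secreting nectary of wild-type Arabidopsis thaliana are described here, with their places on arrays of the nectarless mutant cwinv4-1. The members were chosen by their signal on the wild-type array: the 300 highest of 14338 probe sets, controls left out. The wild-type values are therefore a description, and any comparison of these members with wild-type starts from values picked for being high there. The last member had a wild-type signal of 7442, and the next probe sets outside had 7435, 7435 and 7428.

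Nectaries are glands at the base of the flower that load sucrose from the phloem or from stored starch, export it and let it draw water out as nectar. SWEET9 releases sucrose from nectary cells, and the cell wall invertase CWINV4 splits it outside the cell. Nectaries of Arabidopsis also emit terpenes, and jasmonate is a known regulator of nectar release.

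All groups were of the Columbia-0 ecotype and hand-dissected at flower stages 14 to 15, when nectar is secreted, from plants 30 to 35 days old grown under 16 h of light. One group was wild-type (1 sample) and the other carried the cwinv4-1 allele of CWINV4 (2 samples). Each sample was a pool of about 250 to 300 lateral nectaries, collected 4 to 8 h after dawn, and went to its own 1-colour Affymetrix array after 1 round of RNA amplification. How the allele was made, and whether the mutant samples came from 1 line, is not given in the sources used here, and the title of replicate 1 alone adds the letter a. The series asks how the gland's transcripts differ when no nectar forms. CWINV4 itself is not analysed here, since no probe set with 1 gene name carries its name. The labels therefore could not be checked on the mutated gene. Of the 14338 probe sets, 5966 carry no gene name, and CWINV4 may be among those.

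A signal was deposited for 12455 probe sets on the wild-type array, 12441 on cwinv4-1 replicate 1 and 11365 on replicate 2, with medians of 507.8, 500.8 and 549.8. Replicate 2 stood apart from the other arrays at the bright end: its highest signal was 59300, against 26800 on replicate 1 and 29700 in wild-type. At rank 300 the arrays lay closer, at 8234, 7681 and 7442. Counts below are therefore given for each mutant array separately, and for many members the place in the array's own ranking stands beside the signal. The signal of a probe set also depends on how well its probes bind, so the order is one of signals and not of RNA copies. In a pooled gland, fewer cells of a type and less RNA per cell cannot be told apart.

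Of the 300 members, 109 carried 1 gene name, 13 several and 178 none. All 109 named members were matched to the RefSeq gene table, and 69 of them have a locus code as their only name. The roles given for such loci are background knowledge, not entries of the files. Genes were grouped by role after the members were known, so the groups are descriptive. Of the labelled gland's markers, SWEET9 and JMT were the only ones of 13 with a named probe set, and both were members. The pollen genes AT3G07820 and AT3G28750 had wild-type signals of 658 and 660.7, and the carpel regulator SPT had 877.3. Of the leaf photosynthesis markers, RCA and LHCB4.1 were members and PSAN, at 2788, was not. No marker of petal or stamen identity was measured here.

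The named genes at the top were terpene synthases, a protein of the lipid-transfer type, a multicopper oxidase and SWEET9. AT5G44630, a sesquiterpene synthase, led the named genes with a signal of 24100 in wild-type, 22100 on cwinv4-1 replicate 1 and 50300 on replicate 2. It stood in place 5 in wild-type and in places 4 and 2 in the mutant. AT3G25810, another terpene synthase, read 22400, 18800 and 49500 in the same order, in places 12, 18 and 3. Both genes thus stayed among the 20 highest on every array. AT4G12530, of the lipid-transfer and seed-albumin type family, read 21500, 18900 and 47000, in places 15, 16 and 5. LPR1, the multicopper oxidase known from root responses to low phosphate, read 20300, 19000 and 37200, in places 19, 15 and 16. SWEET9 read 19700 in wild-type and 16300 and 38100 in the mutant arrays, in places 21, 33 and 14. Their signals on replicate 2 were larger while their places moved little: the signal at place 20 was 33400 on that array, against 20200 in wild-type and 18500 on replicate 1. AT1G18720, for which no role is given here, read 23000, 23200 and 41300, in places 9, 3 and 10.

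**Figure D1:**
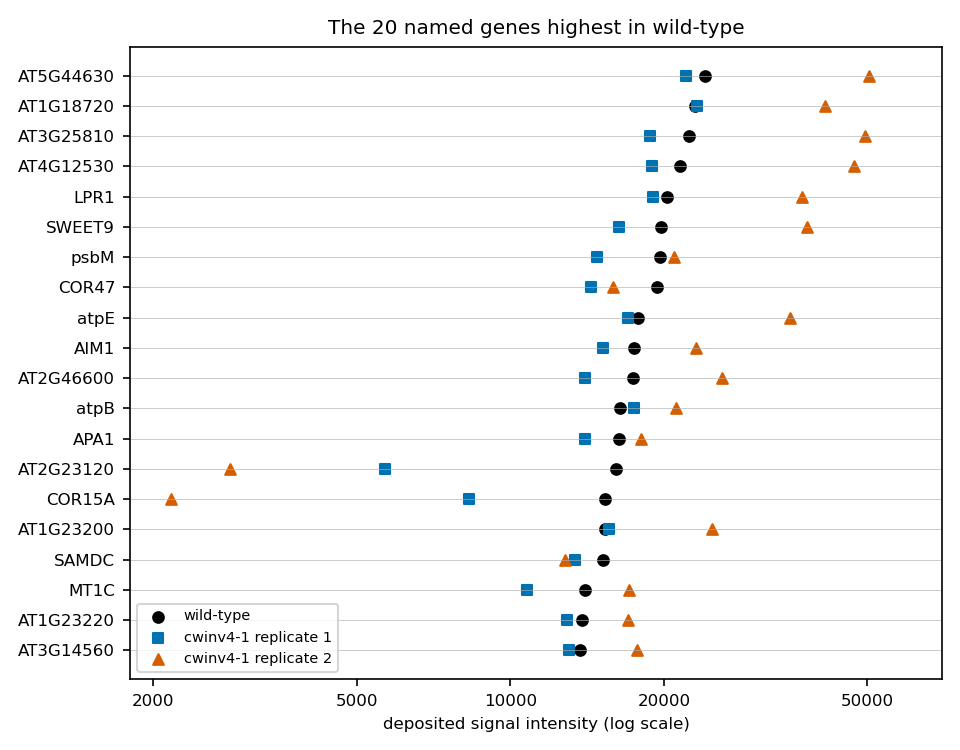
Signal of the 20 named genes that were highest in wild-type, on a log axis of deposited intensity. Circles are wild-type, squares cwinv4-1 replicate 1 and triangles replicate 2, each a single array. Replicate 2 lies to the right for most genes (50300 for AT5G44630). AT2G23120, COR15A, COR47 and SAMDC lie left of wild-type on both mutant arrays.

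The highest probe set of all, 261438_at, carries no gene name here and was in place 1 on all 3 arrays, with signals of 29700, 26800 and 59300. The second, 263905_at, is also unnamed and did not keep its place. Its signal was 25900 in wild-type and 346.9 on replicate 1, 74.7-fold lower, and its cell for replicate 2 holds no value. It was in place 2 in wild-type and 7510 on replicate 1. Lacking a value on replicate 2, it did not enter the test. Which gene it measures is not given here, so whether it is CWINV4 or another gene cannot be said. The next unnamed ones, 260391_at, 259516_at and 260355_at, held places 3, 4 and 7 in wild-type, 2, 7 and 5 on replicate 1, and 7, 22 and 50 on replicate 2.

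Most members kept a high place in the mutant. On cwinv4-1 replicate 1, 250 of the 300 (83.3%) were again among the 300 highest, on replicate 2 it was 223 (74.3%), and on both 213 (71.0%). The mutant arrays shared 240 of their own top lists with each other (80.0%), a count that does not use the wild-type array. Replicate 1 thus shared more of its list with wild-type than with the other mutant array, and replicate 2 less. With 1 wild-type array there is no spread to set these counts against, and a list cut at a threshold loses members near it on any second array. Of the first 100 members, 96 stayed in the top 300 on replicate 1 and 87 on replicate 2, and of the last 100, 61 and 53 did. Widened to the first 600 places, replicate 1 held 293 members and replicate 2 held 277. Their median place was 150 in wild-type, 151 on replicate 1 and 169.5 on replicate 2. Only 4 members on replicate 1 and 10 on replicate 2 lay beyond place 1000, and on replicate 2 a further 2 had no signal.

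**Figure D2:**
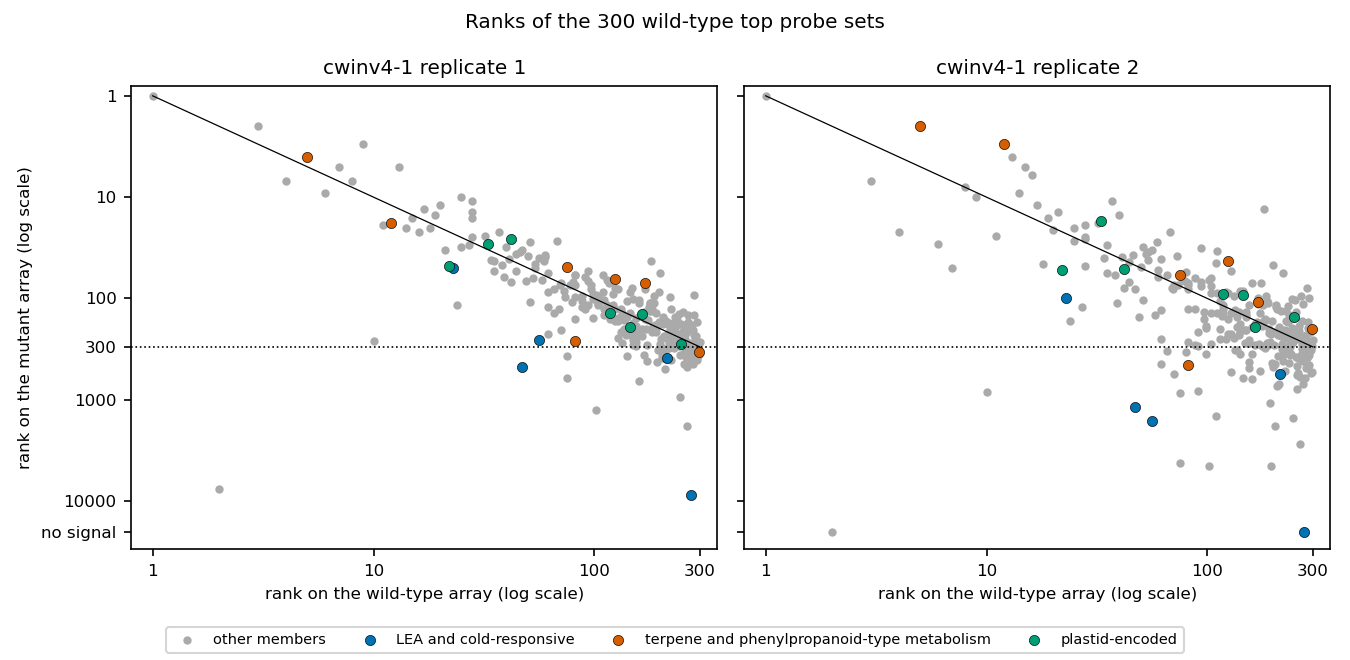
Place of each of the 300 members on the wild-type array (x, log scale) and on each cwinv4-1 array (y, log scale, place 1 at the top). The solid line marks equal places and the dotted line place 300. Most points lie close to the line, and the LEA and cold-responsive genes (blue) lie below it wherever they have a signal. Orange points are terpene and phenylpropanoid-type genes, green ones plastid-encoded genes and grey ones other members, and points at the bottom edge had no signal.

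Shorter lists gave the following counts. Of the 20 highest in wild-type, 16 were among the 20 highest on replicate 1 and 12 on replicate 2, and 11 of the 20 were shared by the mutant arrays. For lists of 100 these counts were 78, 70 and 79.

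**Figure D3:**
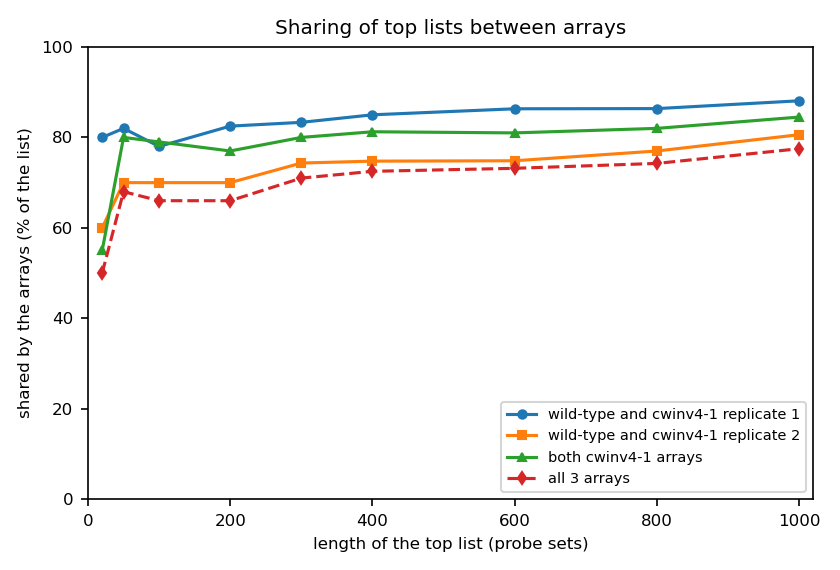
Share of a top list (y, percent) that arrays have in common, against the length of the list (x, 20 to 1000 probe sets). Lines join pairs of arrays, and the dashed line is all 3. From 200 probe sets on, wild-type and replicate 1 share most (82.5% of 200) and wild-type and replicate 2 least of the pairs (70.0%).

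Late embryogenesis abundant (LEA) and cold-responsive proteins protect cells during water loss and cold. Genes of such proteins gave 5 named members, each lower in place on both mutant arrays wherever it had a signal. Of them 1, COR47, stayed in the top 300 on both mutant arrays. A keyword match on gene names placed 10 named probe sets in this class, 3 of them members, so the class as a whole is not described. COR47, a dehydrin, read 19400 in wild-type and 14400 and 15900 in the mutant, in places 23, 50 and 98. AT2G23120, of the LEA family, read 16100, 5678 and 2828 and its place went from 47 to 477 and 1182. Each mutant array lay further from wild-type than from the other mutant array, at a log2 fold change of -2.01 with an SE of 0.47, which did not pass (limma adjusted p = 0.0792). COR15A, a cold-induced protein of the chloroplast, read 15300, 8286 and 2170, in places 56, 257 and 1601 (log2 fold change -1.85, SE 0.59, limma adjusted p = 0.299). AT2G23120 and COR15A passed under some other settings of the limma fit, but not after quantile normalization or with a robust prior. After quantile normalization their log2 differences from wild-type on replicates 1 and 2 were -1.59 and -2.65 for AT2G23120, and -0.93 and -2.93 for COR15A. SRC2, named after a cold-regulated soybean gene, read 8875, 6468 and 5112, in places 214, 388 and 552. LTI30, another dehydrin, read 7896 in wild-type and 241.9 on replicate 1, 32.6-fold lower, with no signal on replicate 2. The 4 with a signal on all arrays were lower than wild-type on both mutant arrays, with median log2 differences of -0.67 on replicate 1 and -1.65 on replicate 2. After quantile normalization these were -0.72 and -1.80. Lower values of this class were already known from these data, and choosing members by high wild-type signals favours lower mutant values, so no test was made of the group.

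The other nectary marker beside SWEET9 was JMT. The enzyme, which makes the volatile methyl jasmonate, read 11900 in wild-type, 12400 on replicate 1 and 2368 on replicate 2, in places 109, 86 and 1445. Replicate 1 was close to wild-type, and replicate 2 was 5.03-fold lower. The measured markers of other flower tissues were also lowest on replicate 2: the pollen markers summed to 1318.7 in wild-type, 1260.7 on replicate 1 and 328.7 on replicate 2 over 2 of 9 listed genes, and SPT of the carpel read 877.3, 767.7 and 390.9. These are low signals, and 20.7% of probe sets had no signal on replicate 2, against 13.1% in wild-type and 13.2% on replicate 1. The part of the missing signals in the marker values was not tested, nor was the part of these markers in the JMT value.

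Genes for phenylpropanoid-type enzymes and acyl transfer accompanied the terpene synthases. 4CL8, an acyl-activating enzyme related to 4-coumarate:CoA ligase, read 13400, 14600 and 20300, in places 75, 49 and 58. AT5G38130, an acyltransferase of the HXXXD type, read 9952, 13000 and 15100, in places 170, 71 and 108. The 2 genes lie next to each other in gene order, with 0 coding genes between them, and both were higher than wild-type on both mutant arrays, after quantile normalization too. Among the 102 nuclear named members there was 1 further pair with at most 2 coding genes between its members, AT5G19730 and AT5G19760. ALDH2C4, an aldehyde dehydrogenase of ferulate and sinapate synthesis, read 11300, 13500 and 22700. AT5G19440, of the cinnamyl alcohol dehydrogenase-like family, went the other way with 13000, 8267 and 5984, in places 82, 260 and 456. AT1G35190, an oxoglutarate-dependent oxygenase, read 7471, 7076 and 10700. Of the 7 genes of this group, terpene synthases included, 5 stayed in the top 300 on both mutant arrays.

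Genes of carbon metabolism and respiration were the largest role group, with 11 members, of which 10 were in the top 300 on both mutant arrays. GAPC2, the glycolytic glyceraldehyde-3-phosphate dehydrogenase, read 9962, 12700 and 14700, in places 169, 81 and 113. TPI, the triose phosphate isomerase before it in glycolysis, read 7711, 8677 and 6808, and its place 389 on replicate 2 was the 1 outside. AT3G02360, a 6-phosphogluconate dehydrogenase of the pentose phosphate pathway, read 9532, 10800 and 12100. The respiratory chain was represented by CYTC-1 (cytochrome c, with 8805, 8350 and 13200), AT4G37830 (a subunit of cytochrome c oxidase, with 9787, 11100 and 11000) and AT3G10860 (a subunit of the cytochrome bc1 complex, with 9417, 10500 and 9922). AT5G19760, a mitochondrial dicarboxylate carrier, and FDH, the mitochondrial formate dehydrogenase, read 8783 and 9622 in wild-type. Both were higher than that on both mutant arrays, at 9683 and 10300 for the carrier and 10700 and 11500 for FDH, but not on replicate 2 after quantile normalization (-0.04 and -0.02 on the log2 scale). Cytosolic supply of citrate-derived carbon was represented by ACLA-1, a subunit of ATP-citrate lyase, at 10800, 10200 and 9631, and by cICDH, an isocitrate dehydrogenase, at 10300, 8084 and 8748. AIM1, a multifunctional enzyme of peroxisomal beta-oxidation, was the highest of the group with 17500, 15200 and 23100. Over the 11 genes the median log2 differences were 0.15 and 0.23 on replicates 1 and 2. After quantile normalization they were 0.16 and -0.11, so the direction on replicate 2 turned with the scaling.

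Plastid genes made up 7 of the 109 named members (6.42%), against 69 of the 8037 named probe sets of the table (0.859%). They were psbM, psbK and psbI of photosystem II, atpE and atpB of the plastid ATP synthase, petB of the cytochrome b6f complex and ndhC of the plastid NDH complex. All 7 stayed in the top 300 on both mutant arrays. The highest, psbM, read 19600, 14800 and 20900, atpE read 17800, 17000 and 35300, and atpB read 16400, 17500 and 21100. Of the 69 plastid probe sets, 7 were in the top 300 in wild-type, 9 on replicate 1 and 22 on replicate 2. The replicate 2 array also had the higher 3′ to 5′ signal ratio in 5 of 6 control pairs, and the part of that in these values was not tested.

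Nuclear genes of photosynthesis gave 5 members. RCA, which activates Rubisco, read 11200, 10100 and 9857, and ATHM2, an m-type thioredoxin of the chloroplast, read 10700, 10200 and 10100. PSBW of photosystem II read 9099, 8563 and 13800, and ATPC1, the gamma subunit of the plastid ATP synthase, read 7914, 9026 and 14700. LHCB4.1, an antenna protein of photosystem II, read 8107, 7140 and 5208 and was the 1 of these 5 that left the top 300 on both arrays.

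Proteases and their partners formed another group of 7, of which 5 stayed in the top 300 on both mutant arrays. APA1, an aspartic proteinase of the vacuole, read 16300, 14000 and 18000, in places 44, 54 and 68. AT4G16190, a papain-type cysteine protease, read 12400, 12300 and 7366, in places 99, 90 and 351. SCPL49, a serine carboxypeptidase, read 12400, 10100 and 11100. BRH1, a RING-H2 protein that responds to brassinosteroid, read 12000, 12000 and 17300. UBC28, a ubiquitin-conjugating enzyme, and ATG8F, an autophagy protein, had wild-type signals of 10300 and 8876. The protease inhibitor CYS1, a cystatin, was near the threshold at 7490, 7573 and 7747, in places 295, 303 and 326, so it left the list without a lower signal.

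Genes of redox control and metal binding included, beside LPR1, the metallothionein MT1C at 14000, 10800 and 17100 and the glutathione reductase GR1 at 12000, 12000 and 16600. The glutaredoxin GRXC2 read 8392, 10400 and 10800 and its place went from 242 to 143 and 197. AT1G65820, of the microsomal glutathione transferase type, read 8499, 8787 and 6341. In this group 4 of 5 stayed in the top 300 on both mutant arrays.

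Of the genes for wall and secreted proteins, ECS1 was furthest above wild-type of all named members on both arrays. ECS1, a cell wall protein, read 9590 in wild-type, 15100 on replicate 1 and 39600 on replicate 2, and its place went from 181 to 43 and 13. It did not pass, with a log2 fold change of 1.35 and an SE of 0.59 (limma adjusted p = 0.690), and replicate 2 lay further from replicate 1 than replicate 1 from wild-type. AT1G23200, a pectin methylesterase, read 15300, 15600 and 24800, and AT5G19730, of the same enzyme type, read 8184, 8948 and 9113. EXLA1, an expansin-like protein, read 9036, 7368 and 4099 and left the top 300 on both arrays. AT5G45950, a GDSL-type lipase, read 8993, 7324 and 9596.

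Calcium-binding and signalling members were AT2G46600, an EF-hand protein, at 17400, 14000 and 26000, the calmodulin-like AT2G41410 and AT1G18210 at 7545 and 7455 in wild-type, and AT1G53210, annotated as a sodium/calcium exchanger, at 10300, 7772 and 8713. AT3G05640, a protein phosphatase of type 2C, read 11700, 11200 and 9128. In this group 3 of 5 stayed in the top 300 on both arrays. Among the remaining roles, SAMDC of polyamine synthesis read 15200, 13400 and 12800, and AT1G23220, a dynein light chain, read 13800, 12900 and 17000. AT1G06760, a linker histone H1, read 9033, 5539 and 4162, in places 208, 495 and 721. AT2G47710 and AT3G53990, of the universal stress protein family, had wild-type signals of 12800 and 8520.

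**Figure D4:**
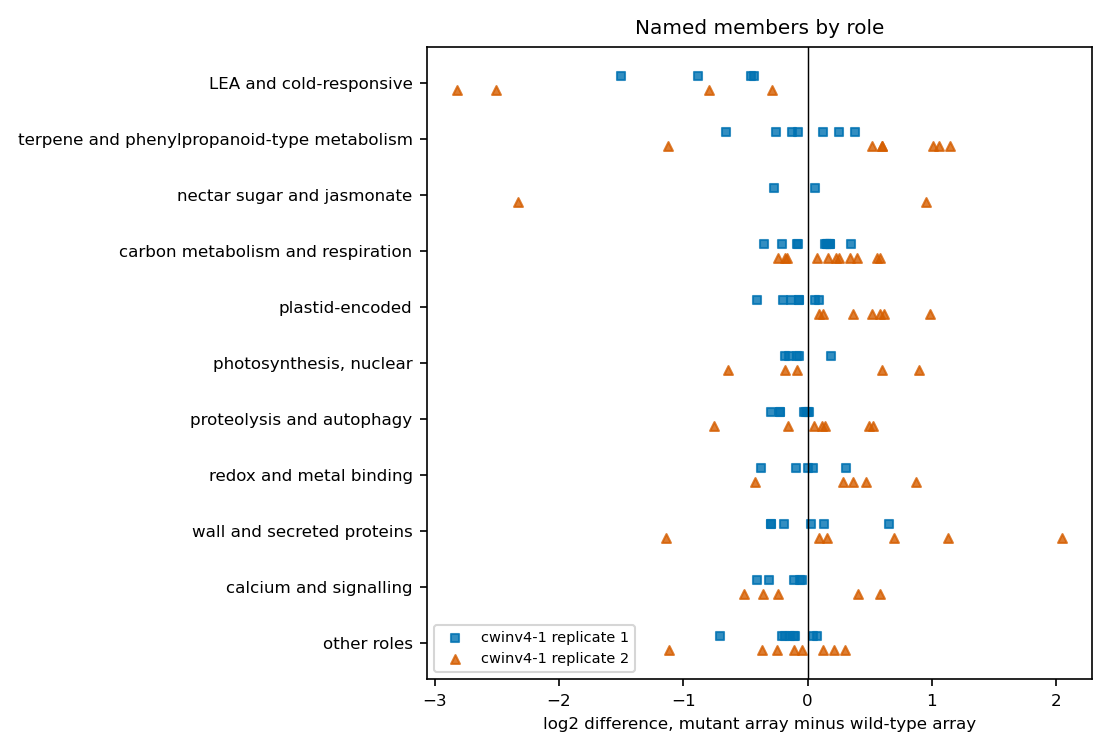
Log2 difference from the wild-type array (x) of each named member with a role and a signal on all 3 arrays, by role (y). Squares are cwinv4-1 replicate 1 and triangles replicate 2. The 4 LEA and cold-responsive genes lie left of 0 on both arrays, and ECS1, the rightmost of the wall and secreted proteins, reaches 0.65 and 2.05.

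The exchange at the edge of the list ran in both directions. In all, 40 members were in neither mutant top list, 18 of them named, and 27 probe sets outside the wild-type list were in both mutant top lists, 6 of them named. Those 27 had a median wild-type place of 349, and 23 of them lay within the first 600. The named ones were AT1G51400 (7174 in wild-type, 10300 and 12600 in the mutant), AT1G78040 (5764, 8486 and 11500), AT1G55960 (3658, 7800 and 14300), AILP1 (5542, 8296 and 9443) and the plastid genes psbZ (6540, 8922 and 15100) and psaB (3907, 7955 and 11100). The unnamed 262113_at came from the lowest place, 2276, with 1683 in wild-type and 7892 and 9079 in the mutant. Just outside the threshold among named genes were psbJ at 7409, AT3G60245 at 7391 and AT5G11770 at 7300. Just inside it were AT1G71710 at 7471, AT1G18210 at 7455 and AT1G76200 at 7442.

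As signals, members were spread less on replicate 1 than on replicate 2, and so were all tested probe sets. The 10th to 90th percentiles of the members' log2 difference from wild-type were -0.41 to 0.20 on replicate 1 and -0.72 to 0.88 on replicate 2. For all tested probe sets they were -0.42 to 0.46 and -0.82 to 0.68. The median log2 difference from wild-type of the 298 members with a signal on all arrays was -0.07 on replicate 1 and 0.17 on replicate 2, beside -0.01 and -0.08 for all 7750 tested probe sets. On replicate 2, 62.4% of the members were above wild-type, and after quantile normalization it was 36.6%, with a median of -0.13. No direction of the members as a whole on replicate 2 is therefore given. On both mutant arrays 92 were lower and 87 higher, and after quantile normalization 133 and 75. Of all 7750 tested probe sets, 2885 were lower and 2328 higher on both arrays (37.2% and 30.0%), and after quantile normalization 3125 and 2093.

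At least 2-fold below wild-type on both mutant arrays were 8 of the 298 members, and at least 2-fold above were 0. Of all 7750 tested probe sets 0.994% were that much lower and 1.29% that much higher. As the members were chosen for a high wild-type signal, nothing is read from that contrast. On replicate 1 alone the count was also 8 lower and 0 higher, beside 1.29% and 1.73% of all tested probe sets. On replicate 2 alone it was 23 lower and 16 higher, beside 6.32% and 4.93% of all. By limma's moderated test, adjusted over the whole table, 2 members passed, both lower, against 0.426% of all probe sets in either direction and 0.206% as lower. At an unadjusted p of 0.05 there were 14 lower and 1 higher among the 298 members, beside 503 (6.49%) of all 7750 in either direction. Both that passed are unnamed: 259426_at read 12100, 2872 and 757.4 (log2 fold change -3.04, SE 0.56, limma adjusted p = 0.0198), and 251735_at read 7977, 2100 and 1309 (log2 fold change -2.27, SE 0.40, limma adjusted p = 0.0198). Of these, 259426_at did not pass with a robust prior, where its adjusted p was 0.971, and neither passed after quantile normalization. The fit takes the lone wild-type array to vary as the mutant ones do.

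Besides the LEA genes, the named members furthest below wild-type on both mutant arrays were AT2G15960 (10200, 4654 and 4730), AT1G06760 (given above), AT5G48480 (9905, 6175 and 5331), AT5G19440 (given above), AT4G14270 (9272, 6101 and 3042), AT1G20070 (10700, 6683 and 7338) and AT5G47060 (11000, 7911 and 7839). The mutant arrays of AT2G15960 lay close together, and both were under the wild-type array by more than 2-fold. After ECS1 and the genes already named, AT1G42960 (8070, 9232 and 11000) and AT4G15545 (9127, 10200 and 14600) were furthest above. None of these named genes passed limma's test.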

How the data were processed

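Signal intensities were used as the authors deposited them, 1 linear value per probe set and array. They were made with MAS5, per the submitters' processing notes, and the series' design text says that other wild-type nectary arrays, not used here, entered the normalization. The version, the target level and the meaning of cells that read null are not given in the sources used here. Such cells were kept as missing. All signals of 10000 or more are multiples of 100 in the deposited table, so ties occur, and tied probe sets share the better place. Replicates are described as biological by the design text. With 3 arrays, their number sets how precise any value can be.

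Names came from the platform annotation at GEO, updated with RefSeq's table (assembly TAIR10.1). Of 14338 probe sets, 8037 had 1 gene name. Each array was ranked on its own over probe sets with a signal. Differences of cwinv4-1 minus wild-type were tested on log2 of the deposited intensity (two-sided) using limma 3.58.1, lmFit and eBayes with trend, under R 4.3.3. This covered the 7750 probe sets measured on every array whose mean log2 value reached the 25th percentile, with Benjamini-Hochberg adjustment and a threshold of 0.05. It has 1 residual degree of freedom. The fit was tried on simulated data drawn from its own variance model, with the same spread for every array. That cannot show whether the test holds for a lone wild-type array.

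The members, lists and tests were chosen with earlier results of these data known. A keyword table written for gene descriptions placed only 30 of the 109 named members, SAMDC wrongly among defence genes, because most carry a locus code alone, so roles were assigned by hand. Named genes are the 20 highest, members by role, those furthest from wild-type on both arrays, those that passed, those at the threshold, entrants and markers. No sequence table was used here.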

Additional observations from a re-analysis of the deposited data

Results flagged for a closer look

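Controls were left out of the ranking, although 15 of the 37 had a wild-type signal at or above that of the last member. Among them, a signal ratio that differed on cwinv4-1 replicate 2 drew attention. In the first GAPDH pair, the signal of the 3′ probe set was 11.172 times that of the 5′ probe set on replicate 2, against 4.81 in wild-type and 2.87 on replicate 1. The second GAPDH pair gave 2.436 on replicate 2, 1.38 in wild-type and 1.28 on replicate 1. High ratios were not limited to replicate 2. In wild-type and on replicates 1 and 2, the first actin pair gave 25.8, 32.2 and 25.8, and the second 12.1, 8.0 and 28.3. The ubiquitin pairs gave 1.84, 1.63 and 3.07, and 0.94, 0.92 and 1.75. Replicate 2 was highest in 5 of the 6 pairs, and replicate 1 in the first actin pair. Replicate 2 is the mutant array that kept fewer of the members in its top list, 223 against 250, and the part of this ratio in that count was not tested.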

How the results depend on the processing

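Median centring and quantile normalization keep the order within an array and so leave the shares of places as they are. With lists of 100, replicate 1 shared 78.0% with wild-type, beside 83.3% for 300. On replicate 2 it was 70.0%, beside 74.3%. Lists of 200 and 600 gave 82.5% and 86.3% on replicate 1 and 70.0% and 74.8% on replicate 2. With the 7965 single-named loci ranked among themselves, new top lists shared 86.7% and 73.3% with wild-type on replicates 1 and 2. Those are not shares of the named members, of which 83 and 81 of 109 stayed in the top 300. Probe sets measured on every array gave 83.3% and 74.3%. The lists overlap and each array is a single sample, so these shares have no spread to be judged by. The share was 80.0% and 60.0% on replicates 1 and 2 for lists of 20, and 88.1% and 80.6% for lists of 1000. For the members, ranking only those measured on every array left the median places at 151 and 172. Leaving out 1 mutant array gave shares of 74.3% to 83.3%. The number of members that passed limma's test was 2 as reported, 0 after quantile normalization (21 at an unadjusted p of 0.05, beside 346 of all 7750), 1 with a robust prior, and 9 each with median centring, without the filter on low values and with the filter at the 50th percentile. It was 2 with a pseudocount and without a trend. All of these were lower in cwinv4-1. The fits tested 7750 probe sets, except 10334 without the filter and 5167 with the filter at the 50th percentile. The totals that follow do not cover the fits with a pseudocount and without a trend. Over all probe sets these settings called 33, 0, 28, 95, 126 and 90, in the order given, and the cause was not tested. At 1.5-fold, 16 members were lower and 3 higher on both mutant arrays, and at 3-fold 2 were lower. Of all 7750 probe sets these were 266 lower and 325 higher at 1.5-fold, and 19 lower and 23 higher at 3-fold. With 1 mutant array left out, 8 to 23 were lower and 0 to 16 higher by 2-fold, replicate 2 giving the larger counts. Without 1 mutant array no residual degree of freedom is left, so the test gave no value. No paired analysis was possible because the groups share only replicate number 1.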

Other observations

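Of the 41 named members for which no role is given, 26 were in the top 300 on replicate 1, 27 on replicate 2 and 22 on both, and of the 68 with a role 51 were on both. The difference was not tested, and the sets were not matched for wild-type place. Of the first 100 members 87 were in the top 300 on both mutant arrays, and of the last 100, 44. After AT1G18720, the highest without a role was AT3G14560, at 13700 in wild-type and 13000 and 17700 in the mutant. It was followed by AT3G03150, at 13000, 13800 and 17000. AT2G23090 read 12000, 11800 and 18800. AT1G17490 read 7621, 7060 and 15800, in places 288, 339 and 100, so that only replicate 2 placed it higher. Of the 191 members without a single name, 140 were in the top 300 on both mutant arrays, against 73 of the 109 with 1 name. That contrast was likewise neither matched for place nor tested. The unnamed 265480_at read 9271 in wild-type and 7252 on replicate 1 but 736.9 on replicate 2, and 248337_at read 13400, 6700 and 807.4.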
